A study of Rattus norvegicus with 2 samples.

Results

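The EGF receptor family and its ligands were followed here through 10 genes: the receptor genes Egfr, Erbb2, Erbb3 and Erbb4 and the ligand genes Nrg1, Areg, Ereg, Hbegf, Tgfa and Btc. The genes are given by family membership, and they were chosen with earlier results of these data known. All 10 were found among the 18166 genes measured, each through 1 array feature. C6 is an established line of rat glioma cells, and 2 colonies, each derived from it as a single colony and called No.4 and No.8, were each measured on 1 whole-transcript expression array of total RNA. Both colonies were described as undifferentiated, and their growth medium held 10% serum. An identical treatment with CHIR99021 (20 µM), an inhibitor of the kinase GSK3, and forskolin (100 µM), which raises cyclic AMP, for 35 days is attached to both arrays. Whether the RNA was taken before or after that treatment is not settled by the labels, and no untreated partner was analysed here, so the comparison is between the colonies alone.

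EGF family receptors are membrane tyrosine kinases that work in pairs. EGFR binds EGF, TGF-alpha, amphiregulin, epiregulin, betacellulin and HB-EGF; ERBB3 and ERBB4 bind neuregulins; ERBB2 has no known ligand of its own and serves as the partner of the others, while ERBB3 has little kinase activity and signals through its partner. The ligands are made as membrane precursors and released by metalloproteases, and the receptors feed the RAS-ERK, PI3K-AKT and phospholipase C pathways. In the nervous system, neuregulin and ERBB3 are best known for the growth and survival of Schwann cells and their precursors, and amplified EGFR is a frequent driver of human glioblastoma.

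Levels are deposited values on a log2 scale, and a difference is the level in No.8 minus the level in No.4. A gene is called past the floor here if its level in either colony was at or above 4.33, the median over every deposited value. A second guide to background was 5.67, the 99th percentile of 1184 olfactory receptor genes, whose usual site of expression is the nose. The colonies have no replicate arrays, and no test, standard deviation or p-value could be given. A 2-fold difference (1 log2 unit) was counted as a description of these arrays, whose number limits the precision. Over the 11069 genes past the floor the median difference was 0.04, with quartiles of -0.22 and 0.30. The C6 label was set against marker genes: Vim (12.57 in No.4 and 12.60 in No.8), Nes (9.54 and 9.94) and S100b (8.24 and 8.46) were bright, whereas Gfap, the astrocyte filament gene, was at 4.11 and 5.17, under 5.67 in both. Of the 9 astroglial and glioma markers 6 were past the floor, with Sox2 (9.08 and 8.44) and Gja1 (7.99 and 6.86, 2.18-fold higher in No.4) among them, and Slc1a3, Aqp4 and Sox9 were under it in both colonies. Of the 6 neuron markers 2 were past the floor: Map2 was bright (8.10 and 8.50), and Rbfox3 (4.68 and 4.76) was under 5.67. The neuron markers Tubb3, Snap25, Syt1 and Stmn2 were under the floor in both colonies. None of the 6 microglia and macrophage markers and none of the 4 measured endothelial markers reached the floor.

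RefSeq promoter sequences of build GRCr8 were matched for 7 of the 10 genes (Areg, Btc, Egfr, Erbb2, Erbb4, Hbegf and Tgfa). The 250 bases before the start site are shown for Areg, because it holds a cyclic AMP response element and forskolin is named in the labels, for Erbb2, the receptor gene past 5.67 with the higher level in No.8, and for Egfr, the receptor that gives the family its name. Capitals mark every match, on either strand, to 5 motifs. The cyclic AMP response element was searched as TGACGTCA and the TATA box as TATAAA. The GC box, to which SP1 binds, was searched as GGGCGG. The CCAAT box was searched by the letters of its name, and the element of the beta-catenin partners TCF and LEF as ATCAAAG. The matches do not overlap each other in these windows.
Areg, chr14:17265642-17265891, minus strand: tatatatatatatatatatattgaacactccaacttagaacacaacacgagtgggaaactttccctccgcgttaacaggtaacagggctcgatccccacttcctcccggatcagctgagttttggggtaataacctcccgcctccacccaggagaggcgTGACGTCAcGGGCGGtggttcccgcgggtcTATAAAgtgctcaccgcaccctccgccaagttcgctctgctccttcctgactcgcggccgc
Egfr, chr14:95378376-95378625, plus strand: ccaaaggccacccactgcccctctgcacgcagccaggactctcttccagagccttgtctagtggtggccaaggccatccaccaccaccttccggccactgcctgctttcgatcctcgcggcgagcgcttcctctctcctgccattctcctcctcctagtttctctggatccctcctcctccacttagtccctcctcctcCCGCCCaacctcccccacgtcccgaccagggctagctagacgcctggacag
Erbb2, chr10:83907351-83907600, plus strand: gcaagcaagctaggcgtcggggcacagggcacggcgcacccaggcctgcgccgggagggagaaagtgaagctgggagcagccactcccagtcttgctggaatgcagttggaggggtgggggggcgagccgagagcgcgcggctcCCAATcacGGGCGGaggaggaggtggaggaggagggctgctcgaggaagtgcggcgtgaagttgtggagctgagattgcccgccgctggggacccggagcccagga

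In the Areg window the TGACGTCA match began 91 bases before the start site, the GC box 82 and the TATA box 61 bases before it. TGACGTCA was found in 1 of the 7 promoters and in 1.59% of 33469 RefSeq promoter windows of the same length. TATAAA was likewise found in Areg alone of the 7 and in 12.9% of all windows. GGGCGG was present in 6 of the 7 (all but Hbegf) and in 30.5% of all windows. CCAAT was present in 2 of the 7, Erbb2 and Hbegf, and in 34.0% of all windows, and ATCAAAG in 0 of the 7 and in 3.15% of all windows. GC content was 54.4% in the Areg window, 63.6% in Egfr and 69.2% in Erbb2, beside a median of 51.2% over all windows. The matches describe letters only, and no binding was measured.

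Of the 4 receptor genes, Erbb3 was lower and Erbb2 higher in colony No.8, while Egfr and Erbb4 were at or near background in both. Erbb3, the kinase-poor neuregulin receptor, had a level of 9.66 in colony No.4 against 8.66 in No.8. The difference of -0.99 (1.99-fold, with No.4 higher) fell just short of 2-fold and was larger than that of 96.8% of the 908 genes of like level. Both Erbb3 levels stood well above 5.67, so the fold does not rest on a value near background. Erbb2, the partner receptor without a ligand, was at 6.31 in No.4 and 7.06 in No.8. The difference of 0.76 (1.69-fold higher in No.8) was larger than that of 88.0% of the 907 genes of like level, and both levels were past 5.67. The ratio of Erbb3 to Erbb2 within an array therefore differed by -1.75 log2 units, 3.37-fold lower in No.8.

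Egfr, the receptor for EGF and most other ligands of the family, was at 4.01 in No.4 and 4.46 in No.8. It passed the floor in No.8 only, and by little: the 95th percentile of olfactory receptor genes was 4.43. The 1.36-fold difference shrank to 1.10-fold when the lower level was raised to the floor. Erbb4, the other neuregulin receptor, was at 2.59 and 3.15, under the floor in both colonies. Neither level of Egfr or Erbb4 reached 5.67, so the data give no fold for these receptors that can be told from background.

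**Figure D1:**
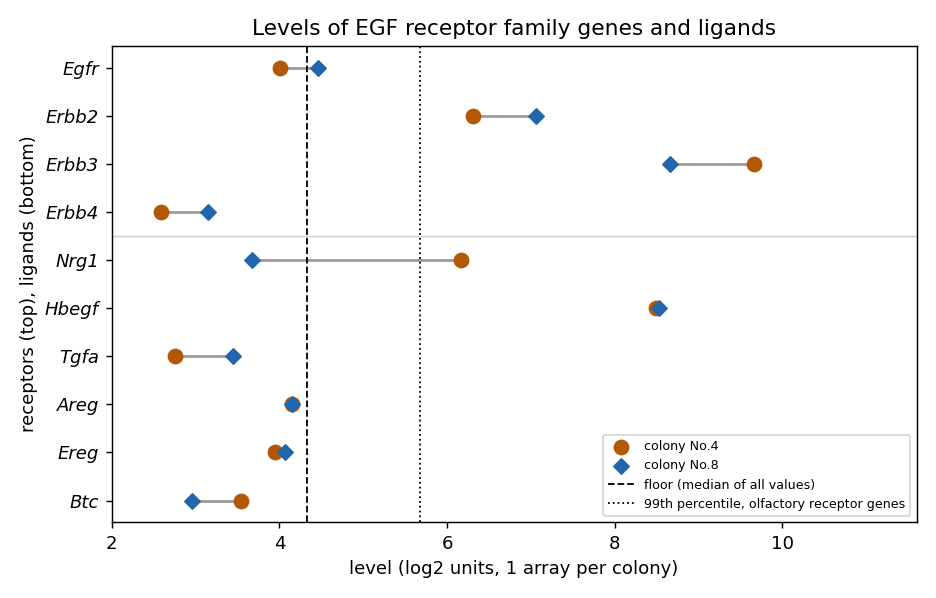
Levels in log2 units (horizontal axis) of the 4 receptor genes and the 6 ligand genes, with 1 point per array for colony No.4 (circles) and colony No.8 (diamonds); the dashed line is the floor of 4.33 and the dotted line 5.67, the 99th percentile of olfactory receptor genes. Erbb2, Erbb3 and Hbegf lie past both lines in both colonies, and Nrg1 does so in No.4 alone.

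Among the 6 ligand genes, Nrg1 was the member with a counted difference, Hbegf was bright and nearly equal, and the other 4 were under the floor in both colonies. Nrg1, which encodes neuregulin 1, a ligand of ERBB3 and ERBB4, was at 6.17 in No.4 and 3.67 in No.8. In deposited values this is 5.66-fold higher in No.4. Since the No.8 level was under the floor, the fold is better read as a bound: at least 3.59-fold when No.8 is raised to the floor, and at least 1.41-fold when it is raised to 5.67. The deposited difference of -2.50 was larger than that of 99.6% of the 907 genes of like level, a rank that carries the same limit. In all, 1 of the 5 members past the floor differed by at least 2-fold, and it was higher in No.4. Among all genes past the floor, 5.47% differed by at least 2-fold, 2.57% being higher in No.4 and 2.91% higher in No.8. With 5 members past the floor, 1 gene is too few to set the family apart from that background. The Nrg1 gene gives rise to many isoforms from several promoters, and its 1 feature does not separate them.

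Hbegf, which encodes heparin-binding EGF-like growth factor, had levels of 8.49 (No.4) and 8.53 (No.8). The difference of 0.03 was smaller than that of most genes of like level (5.95% of 907 had a smaller one). The ratio of Nrg1 to Hbegf differed by -2.53 log2 units between the arrays in deposited values, which carries the same limit as the Nrg1 level in No.8.

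The remaining EGFR ligands were dim. Tgfa, which encodes transforming growth factor alpha, was at 2.75 in No.4 and 3.45 in No.8, and Btc, which encodes betacellulin, was at 3.54 and 2.96. Ereg, the epiregulin gene, was at 3.95 and 4.07. Areg, the amphiregulin gene whose promoter window is shown above, was at 4.15 in both colonies. The deposited Areg values were identical in every digit, as were those of 1320 of the 36685 features on the array, so this zero is no measure of precision. The differences of Tgfa (0.70), Btc (-0.58) and Erbb4 (0.56) were larger than those of 98.2%, 95.4% and 95.3% of genes of like level, but all 3 genes lay under the floor in both colonies. On the RefSeq map Btc, Areg, Ereg and Epgn, which encodes epigen, are neighbouring protein-coding genes in that order on chromosome 14. All 4 were under the floor in both colonies (Epgn at 3.17 and 3.55). Mthfd2l, the next gene after Epgn, was past the floor at 5.91 and 5.73. Parm1, the gene before Btc (3.70 and 3.60), and Cxcl2, the gene after Mthfd2l (4.23 and 4.00), were under it in both colonies.

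**Figure D2:**
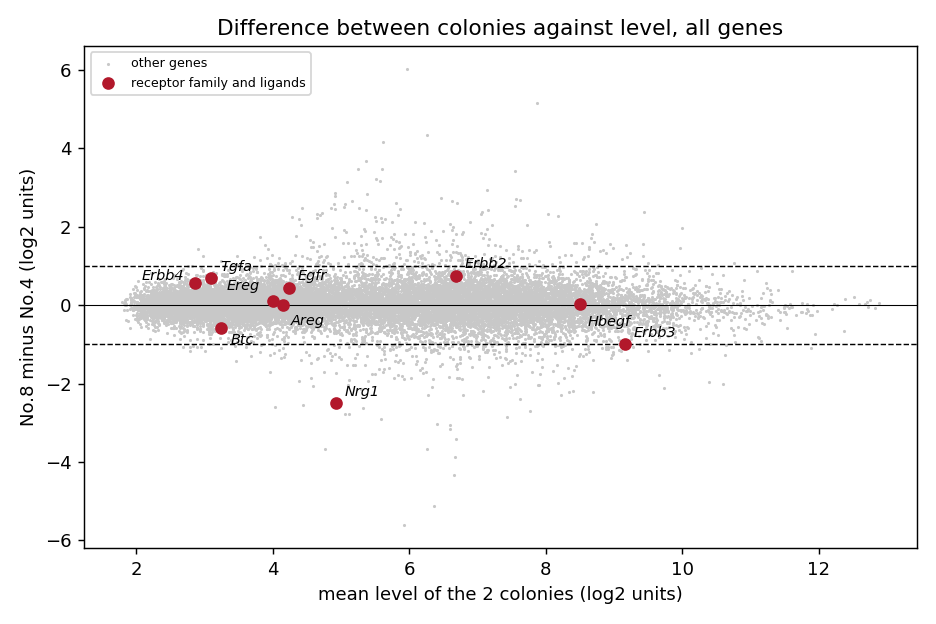
Difference between the colonies (No.8 minus No.4, log2 units, vertical axis) against the mean level of the 2 colonies (log2 units, horizontal axis) for all 18166 genes in grey and the 10 receptor and ligand genes in red; dashed lines mark 2-fold. Nrg1 at -2.50 lies past the lower line, Erbb3 at -0.99 lies at it, and the other 8 genes lie between the lines.

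Over all 10 genes, 6 were higher in No.8, 3 were lower and 1 was equal, with a median difference of 0.07. Over all 18166 genes the median was 0.03, with 9489 higher, 8042 lower and 635 equal. The receptor genes had a median of 0.51, which rests in part on Egfr and Erbb4 near background, and the ligand genes a median of 0.02. For 5 of the 10 genes (Nrg1, Tgfa, Erbb3, Btc and Erbb4) the difference exceeded that of 95% of genes of like level, and 3 of these 5 were under the floor in both colonies. Nrg1 was under it in No.8. Among the 105 measured pathway genes, the levels of Ksr1, a scaffold of the RAF-MEK-ERK cascade, were nearest to those of Nrg1 over the 2 arrays (6.64 and 4.02, a Euclidean distance of 0.58 log2 units). Egf (distance 1.48) and Pik3cd (1.64) followed. Likeness over 2 arrays is a loose measure.

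Markers of the oligodendrocyte lineage, in which Erbb3 is also expressed, differed in the same direction as Erbb3 and Nrg1. All 7 measured markers were lower in No.8, with a mean level of 6.86 in No.4 and 6.06 in No.8 and a median difference of -0.52. Among all 11069 genes past the floor, 5034 were lower and 5890 higher in No.8. Mbp (-0.04) and Mog (-0.11) differed by little and were under 5.67 in both colonies. Sox10, a transcription factor of oligodendrocytes and Schwann cells, was at 9.69 and 9.36, and Pdgfra, a receptor of oligodendrocyte precursors, was at 10.24 and 9.53. Olig2 was at 6.36 and 4.22, under the floor in No.8, and Cspg4 at 6.37 and 4.62, under 5.67 in No.8. Of the 5 measured Schwann cell markers, all past the floor, 4 were higher in No.8. The neurotrophin receptor gene Ngfr (7.05 and 9.32) and the myelin protein gene Pmp22 (9.14 and 10.17) were so by at least 2-fold. The share over all genes past the floor was 2.91%. S100b differed by 0.22, and Prx (4.93 and 5.34) was under 5.67 in both colonies. Egr2 was lower in No.8 (9.21 and 8.69). The part of either marker list in the Erbb3 and Nrg1 values was not tested. In RNA from whole cultures, fewer cells that express a gene and less of its RNA per cell cannot be told apart.

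The pathway around the receptors was described with 8 lists of 105 measured genes. The lists were chosen with earlier results of these data known, so their counts are a description and no test. Of the 95 pathway genes past the floor, 11 differed by 2-fold or more, 3 of them in favour of No.8 and 8 in favour of No.4, where the shares of 2.91% and 2.57% over all genes are the background. The median over the 105 genes was -0.08. The 11 genes were spread over 6 of the lists and are described below by role.

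Further ligands of the family showed no 2-fold difference. Egf, the gene of the founding ligand, was at 4.77 in No.4 and 4.15 in No.8, and Nrg2 was at 5.17 and 5.34, all under 5.67. Nrg3 and Nrg4 did not reach the floor. The list's median over its 5 genes was 0.17.

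Genes that release or hold back ligands differed in both directions. Adam12 (7.31 and 8.82, 2.85-fold) and Adam19 (5.67 and 7.59, 3.77-fold), metalloproteases of the family that sheds membrane-bound growth factors, were higher in No.8. Timp3, an inhibitor of such proteases, was at 9.63 and 8.29, 2.53-fold higher in No.4. Adam17, the main sheddase of several EGFR ligands, was at 7.52 and 8.05, a difference of 0.53. Of the 10 measured genes, 6 were higher and 3 lower in No.8, and the median was 0.29. At 2-fold, 2 of the 9 past the floor were higher in No.8 and 1 in No.4. The shares over all genes past the floor were 2.91% and 2.57%.

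Genes listed as receptor brakes were mostly lower in No.8, several of them by little. Of the 13 measured, 10 were lower and 3 higher, against 8042 lower and 9489 higher over all 18166 genes. Their median of -0.16 lay within the quartiles of -0.22 and 0.30 over all genes past the floor. Of the 11 past the floor, 2 reached 2-fold in favour of No.4 and 0 in favour of No.8. The shares over all genes past the floor were 2.57% and 2.91%, and 2 genes are too few to set the list apart. Errfi1, an inhibitor that binds the receptor kinase domain and is induced by receptor signalling, had levels of 10.56 (No.4) and 8.78 (No.8), a 3.44-fold difference. Lrig3, of a family of membrane proteins that regulate these receptors, was at 7.63 and 6.54 (2.14-fold), and whether it restrains them was not tested. Socs4, a suppressor of cytokine and EGFR signalling, was at 8.00 and 7.24. Cbl, a ubiquitin ligase that sends activated EGFR to breakdown, differed by -0.13, and Lrig1 by -0.01.

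Of the 15 adaptors past the floor that link receptors to RAS and other pathways, 1 (6.67%) reached 2-fold. That share is near the 5.47% over all genes past the floor. Shc3, a neural form of the SHC adaptor, was at 8.36 and 7.34 (2.03-fold higher in No.4), whereas Shc1 was at 9.07 and 8.91 and Grb2 at 8.24 and 8.43. Eps8, a substrate of EGFR, was just under 2-fold (8.45 and 7.54, 1.88-fold), and Nck2 at 8.03 and 8.53. The median over 17 adaptors was 0.06.

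In the RAS-ERK cascade, 8 of 12 measured genes were higher in No.8, each by less than 2-fold, and the median was 0.17. Over all 18166 genes, 9489 were higher in No.8. Ksr1 went the other way, at 6.64 in No.4 and 4.02 in No.8. With the No.8 level raised to the floor the Ksr1 difference was at least 4.97-fold, and with it raised to 5.67 at least 1.96-fold. Nf1, which switches RAS off, was at 8.36 and 7.52, and the ERK-activated kinase gene Rps6ka3 at 7.02 and 7.51. The PI3K-AKT arm had 0 genes at 2-fold among 14 past the floor, beside 5.47% of all genes past it, and a median of -0.12. Mtor (6.67 and 7.61) and Pik3r3 (5.64 and 6.31) were higher in No.8 and Rictor (7.37 and 6.86) was lower. In the phospholipase C, SRC and STAT arm the median was -0.06, and Prkcb, a protein kinase C gene, was at 2.95 in No.4 and 8.98 in No.8, a gap of at least 25.1-fold with the No.4 level raised to the floor and of at least 9.90-fold with it raised to 5.67. Prkca, another protein kinase C gene, was at 10.77 and 9.93, and Jak1 at 9.13 and 8.59.

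Genes that ERK signalling is known to induce were mostly lower in No.8, while several of the bright ones were close to equal. All 22 were past the floor, and 17 were lower and 5 higher in No.8. Over all genes past the floor, 5034 were lower and 5890 higher. The median was -0.26, beside 0.04 over all genes past the floor. The 3 that reached 2-fold, all in favour of No.4, were Spry4, a feedback inhibitor of receptor tyrosine kinases (7.71 and 5.84, 3.66-fold), Dusp5, a nuclear ERK phosphatase (8.92 and 7.41, 2.86-fold), and Fosl1, the AP-1 factor FRA1 (9.88 and 8.49, 2.62-fold). None was 2-fold higher in No.8. The shares at 2-fold over all genes past the floor were 2.57% in favour of No.4 and 2.91% in favour of No.8. Dusp6, the cytoplasmic ERK phosphatase, was at 10.40 and 10.41, Etv5 at 9.05 and 9.03 and Egr1 at 10.75 and 10.54. Fos went the other way, at 8.15 in No.4 and 8.93 in No.8 (1.73-fold higher in No.8). These genes respond to many receptors besides the EGF family, and no phosphorylation was measured.

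**Figure D3:**
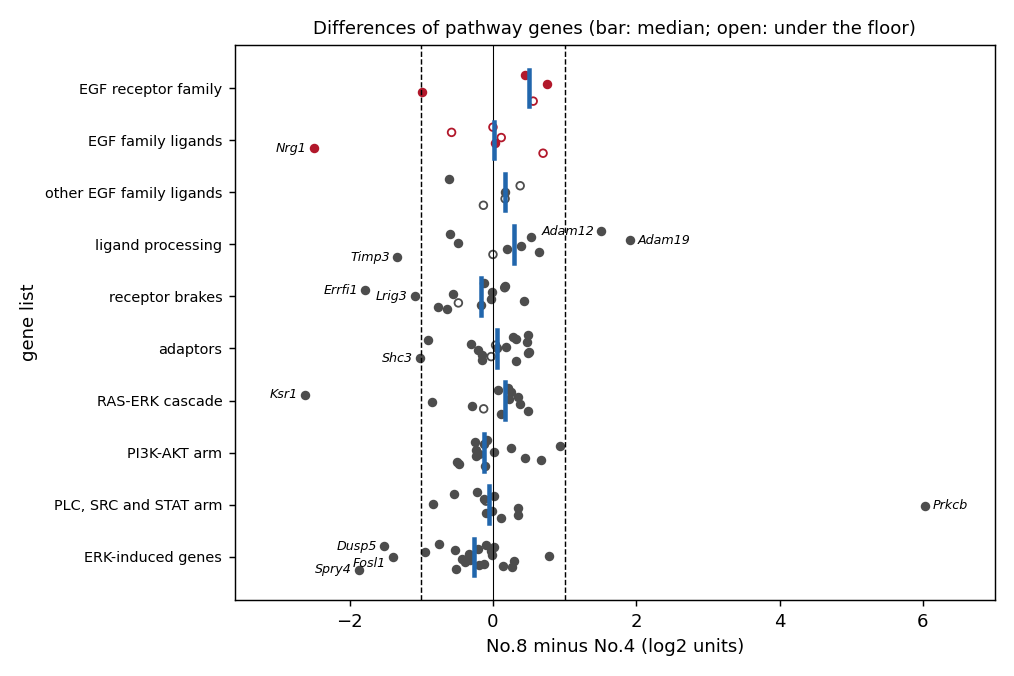
Difference between the colonies (No.8 minus No.4, log2 units, horizontal axis) for each measured gene of the receptor, ligand and pathway lists (vertical axis), with filled points past the floor, open points under it, a blue bar at each list's median over all measured genes and dashed lines at 2-fold; genes at or past 2-fold are named. The medians lie between -0.26 for ERK-induced genes and 0.51 for the receptors, and Prkcb at 6.03 and Ksr1 at -2.62 lie farthest out.

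The values of the 10 genes were recomputed under 9 other settings. Only 5 of these can move a member's difference, since each member has 1 feature and a floor alters counting alone. Under those 5, Erbb2 was higher in No.8 (0.47 to 0.76), and Erbb3 (-1.03 to -0.89) and Nrg1 (-2.56 to -0.50) were lower. Nrg1 was under 2-fold once 64 was added on the linear scale (-0.83) or both levels were counted from 5.67 (-0.50). Erbb3 passed 2-fold after centring on the median difference (-1.03). With levels raised to 5.67, 0 members reached 2-fold, against 3.43% of all genes past the floor (1.66% in favour of No.8 and 1.77% in favour of No.4). At a smaller fold of 1.5, 3 of the 5 members past the floor were counted, Erbb2 with No.8 higher and Erbb3 and Nrg1 with No.4 higher, against 17.8% of all genes past the floor (9.87% and 7.93% in those directions).

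**Figure D4:**
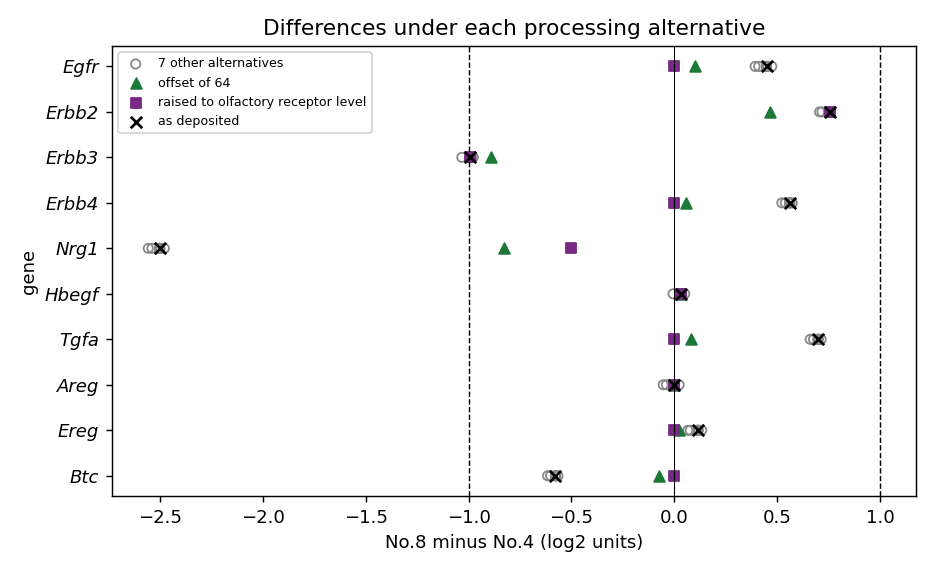
Difference between the colonies (No.8 minus No.4, log2 units, horizontal axis) for each of the 10 genes as deposited (crosses) and under 9 processing alternatives: an offset of 64 (triangles), levels raised to 5.67 (squares) and 7 others (open circles); dashed lines mark 2-fold. Nrg1 moves from -2.50 to -0.83 and -0.50, Erbb3 stays between -1.03 and -0.89, and Egfr, Erbb4, Tgfa and Btc move close to 0 under the offset and to 0 when raised to 5.67.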

How the data were processed

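Total RNA of 2 C6 colonies was measured on 1 array each; per the labels' protocols, sense cDNA was fragmented and biotin-labelled with a whole-transcript kit. Values are log2 levels as deposited by the authors; base 2 was inferred from a maximum of 13.34, above the 11.1 that a natural log of a 16-bit signal can reach. The software, background correction and normalization, not given in the sources used here, could not be checked. The array medians were 4.34 in No.4 and 4.31 in No.8, and no scaling was added. Features were named through the platform annotation: 18511 had exactly 1 gene symbol, 575 had several and 17599 none. Where a gene had several features (291 genes), the one with the highest mean level was used. Genes of like level share 1 of 20 bins of mean level. Genes named are the 10 members, every pathway gene past the floor at 2-fold and up to 3 with the largest differences per list. Markers were named too. Adam17, Cbl, Lrig1, Shc1, Grb2, Dusp6, Etv5, Egr1, Fos, Epgn, Nrg3, Nrg4, Mthfd2l, Parm1 and Cxcl2 were added after their values were seen. Members and lists were chosen with earlier results of these data known. The 2-fold count was tested on simulated data, with differences planted in bright genes only and little noise. Genes near the floor, the other settings and the motif search were not tested in that way. Python 3.11.15, pandas 2.3.3 and statsmodels 0.14.6 were used.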

Additional observations from a re-analysis of the deposited data

How the results depend on the processing

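No paired analysis was possible because each colony has 1 array, and no replicate could be left out. Every member has 1 feature, so the choice of feature moved no member. Centring on the median difference turned Hbegf to -0.0061, took Erbb3 to -1.03 (past 2-fold) and so gave 2 members and 1 receptor at least 2-fold higher in No.4. Nrg1 was not counted with an offset of 64 (-0.83), with levels raised to 5.67 (-0.50), or with a floor at the upper quartile (6.37), where its difference is still -2.50; each of these left 0 members and 0 ligands at least 2-fold higher in No.4. Tgfa moved to 0.083 with the offset and to 0.00 when raised. The median of the ligands turned to -0.022 with centring and to -0.011 with loess, and that of the receptors to -0.12 over those past the upper quartile. Means in place of medians differed in sign for all 10 members (-0.15), the ligands (-0.37), the other ligands (-0.0063), the RAS-ERK cascade (-0.15), the PI3K-AKT arm (0.0085) and the phospholipase C, SRC and STAT arm (0.41). With the offset, 1 receptor brake and 0 adaptors were 2-fold higher in No.4, and with raised levels 0 genes of the RAS-ERK cascade were. At 1.5-fold, 1 member (a receptor) was higher in No.8 and 2 in No.4 (1 of them a receptor), beside 9.87% and 7.93% of all genes past the floor. At 1.5-fold the genes higher in No.4 numbered 1 of the other ligands, 2 in ligand processing, 4 receptor brakes, 2 adaptors, 2 in the RAS-ERK cascade, 1 in the phospholipase C, SRC and STAT arm and 5 ERK-induced genes. At that fold those higher in No.8 numbered 3 in ligand processing, 1 in the phospholipase C, SRC and STAT arm, 2 in the PI3K-AKT arm and 1 of the ERK-induced genes. Without detection calls, the distance of a dim level from its array's background could not be given.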

Other observations

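Some genes in marker lists for other cell types were past 5.67. Epcam, which encodes an adhesion molecule of epithelial cells, had levels of 7.30 (No.4) and 6.19 (No.8), a 2.17-fold difference, past 5.67 in both colonies. The other 4 measured epithelial markers (Cdh1, Krt8, Krt18 and Krt14) were under the floor in both. Of the 6 fibroblast and meningeal markers, 4 were past the floor. Col1a1 (8.25 and 10.64) and Pdgfrb (6.48 and 7.55) were at least 2-fold higher in No.8, beside 2.91% of all genes past the floor. Col1a2 (4.57 and 5.06) and Col3a1 (4.61 and 5.08) were under 5.67 in both colonies, and Dcn and Lum were under the floor in both. These are values of 1 array per colony, with no test.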
